A study of Mus musculus with 21 samples.

Results

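The genes described here are 5 markers of the mesothelium, the cell sheet that covers the serosal face of the colon: Upk3b, Upk1b, Msln, Wt1 and Lrrn4. They were picked by symbol, as 5 of the 24062 genes in a count table of mouse colon RNA, after Upk3b had stood out in earlier results from the same libraries. The table holds 21 libraries in 7 groups of 3, all from C57BL/6 mice. Wild-type males gave a normal and a tumour group, as did males carrying App NL-G-F, a knock-in of Alzheimer's disease mutations into the gene of the amyloid precursor. Wild-type females gave a normal and a tumour group, and knock-in females gave a normal group only. Tumours came from AOM/DSS, in which the carcinogen azoxymethane is followed by dextran sulfate sodium, a polymer toxic to the colonic mucosa. The normal libraries carry the label Non-treatment, whereas the text of the series speaks of normal tissue beside tumours or, without tumours, of normal colon. Ages were not given in the sources used here. Nothing there says whether the 3 libraries of a group are separate animals or how much of the bowel wall a sample took in, so p-values measure the spread between these libraries.

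Mesothelial cells form a single flat layer that lets the bowel slide in the peritoneal cavity, outside the smooth muscle coat and a thin layer of connective tissue. They keep epithelial features, such as keratins and uroplakins, together with mesodermal ones, such as the transcription factor Wt1, and after injury they can give rise to fibroblast-like cells. Upk3b and Upk1b encode uroplakins, membrane proteins first known from the bladder lining. Lrrn4 encodes a membrane protein with leucine-rich repeats. Msln encodes mesothelin, a surface protein that is also produced by cells of several carcinomas.

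Promoters were matched by symbol for 2 of the 5 members, Upk3b and Lrrn4, and are shown because these genes were also found in the same libraries. Both stretches are the 250 bases upstream of RefSeq's start of the gene, on GRCm38.p6. That start lies inside Lrrn4 as GENCODE M21 places the gene, so the last bases of its stretch belong to that gene model. Capitals mark matches, on either strand, to GGAATG, the core of sites bound by TEAD factors, and to TGGGAG, a core of sites bound by Wt1. These motifs were chosen with the sequences in view.
Upk3b, chr5:136038246-136038495, plus strand: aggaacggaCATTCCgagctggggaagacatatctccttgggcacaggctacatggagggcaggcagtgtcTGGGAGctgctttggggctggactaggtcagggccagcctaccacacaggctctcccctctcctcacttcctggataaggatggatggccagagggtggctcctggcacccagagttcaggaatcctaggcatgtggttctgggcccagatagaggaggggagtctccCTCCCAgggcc
Lrrn4, chr2:132880863-132881112, minus strand: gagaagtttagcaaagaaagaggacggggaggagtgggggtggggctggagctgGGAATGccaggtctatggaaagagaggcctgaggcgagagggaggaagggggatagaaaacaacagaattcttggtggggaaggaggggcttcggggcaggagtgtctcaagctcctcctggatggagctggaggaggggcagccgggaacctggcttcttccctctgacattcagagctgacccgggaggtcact
The Upk3b stretch holds the TEAD letters once, on the other strand, 241 bases before the start. It holds the Wt1 letters on the given strand at 179 bases and on the other strand at 11 bases before the start. The Lrrn4 stretch holds the TEAD letters once, on the given strand at 196 bases, and no match to the Wt1 letters. Among 32851 such promoters of the same length, 12.6% hold GGAATG and 24.9% hold TGGGAG. Neither stretch holds the GC box letters GGGCGG, found in 32.7% of promoters, or the TATA letters TATAAA, found in 12.4%. G and C make up 60.8% of the Upk3b stretch and 59.2% of the Lrrn4 stretch, against a median of 52.4%.

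In the GENCODE M21 annotation of GRCm38 the members lie on 4 chromosomes, and no other gene overlaps them. Upk3b is at chr5:136038496-136046487 and Upk1b at chr16:38773184-38800328. Msln is at chr17:25748613-25754378. Wt1 is at chr2:105126529-105173616 and Lrrn4, on the same chromosome, at chr2:132868305-132880891. Neither the use of strand nor the treatment of reads that match more than 1 gene is given, so 2 neighbours were also read. The antisense gene Wt1os, which lies just beside Wt1 without overlapping it, had 0 to 6 counts per library. The paralog Upk3bl had 98 counts in knock-in male tumour replicate 2, where Upk3b had none, and 3 in wild-type female normal replicate 1.

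Library totals ran from 3414123 counts (wild-type male tumour replicate 2) to 26174008 (wild-type female normal replicate 1), and 3 counts, the floor below which a level was not read, equalled 0.127 to 0.873 CPM, counts scaled to library size. Replicate libraries always differed by more than counting noise (chi-square per degree of freedom 6.6 to 63.4). The labels number the libraries, and 3 tumour libraries stand apart as numbers 152 to 154: replicates 2 and 3 of the wild-type females and replicate 3 of the knock-in males. All 5 members passed the filter on low counts, at which 15936 genes remained. Differences between groups were tested with edgeR's quasi-likelihood test on all 21 libraries, adjusted over those genes with a threshold of 0.05, and log2 fold changes are given with their standard error (SE).

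Upk3b, the member that labels mesothelium most narrowly, was above 3 counts in 4 of the 21 libraries and at 0 in 13. Those libraries were wild-type female normal replicates 1 and 2, with 182 and 46 counts, knock-in male normal replicate 2, with 75, and knock-in male tumour replicate 1, with 14. The other 17 libraries held 0 or 1 count. In CPM, wild-type female normal colon had 7.69, 6.41 and 0.155, so that replicate 3 stood with the other groups rather than with its own. Knock-in male normal colon had 0.0934, 4.74 and 0, and knock-in male tumours 0.952, 0 and 0. Wild-type male normal colon had 1 count in all and wild-type male tumours had 1, while knock-in females and wild-type female tumours had none. Fewer mesothelial cells in a sample and less of their RNA per cell cannot be told apart in bulk tissue.

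Lrrn4 was above 3 counts in the same 4 libraries as Upk3b and in no other. Its tests in the contrasts known for Upk3b therefore rest on the libraries that set Upk3b apart, and are not independent of that choice. It had 4.82, 4.32 and 0.155 CPM in wild-type female normal colon and 0.28, 2.02 and 0 CPM in knock-in male normal colon. Knock-in male tumours had 0.816, 0.0591 and 0.195 CPM. Every one of the remaining 12 libraries lay at or under 0.351 CPM. Wild-type female normal replicates 1 and 2 were thus high and replicate 3 low, and a single library carried the level in each knock-in male group.

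Wt1, a transcription factor that mesothelial cells retain from the embryo, was above 3 counts in 7 libraries, all of them normal colon. Wild-type female normal colon had 3.46, 1.53 and 0.464 CPM and knock-in male normal colon 1.12, 3.73 and 0.0864 CPM. Wild-type male normal colon was lower and even, at 0.283, 0.299 and 0.497 CPM, from 6, 4 and 5 counts. All 6 wild-type tumour libraries were at 0 counts, and the knock-in male tumours held 3, 2 and 0. Wt1 was therefore read in wild-type male normal colon, where Upk3b was at 0, 1 and 0 counts. Still, the 4 libraries above 3 counts of Upk3b held 80.3% of all Wt1 counts, against 25.1% of the counts of all genes. Tests of Wt1 in the contrasts known for Upk3b are thus not independent of that choice either.

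Upk1b, the uroplakin that is a tetraspanin, was above 3 counts in 19 libraries. It reached 5.31 CPM in knock-in male tumour replicate 1, its highest library, against 0.887 and 0.976 CPM in the other two knock-in male tumours. Knock-in male normal replicate 2 had 4.11 CPM, with 1.21 and 0.691 CPM in its group. Wild-type female normal colon had 3.25, 2.51 and 0.928 CPM. The 4 highest libraries for Upk1b were the 4 that held Upk3b and Lrrn4, although their order differed. They held 63.6% of all Upk1b counts, so tests of Upk1b in the contrasts known for Upk3b are likewise not independent. In the other 17 libraries Upk1b stayed at or under 1.21 CPM, with wild-type female tumours at 0.136, 0.468 and 0.435 CPM and wild-type male tumours at 0.648, 0 and 0.368 CPM.

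Msln was above 3 counts in all 21 libraries and followed another order. Its highest levels were in wild-type male tumours, at 44.8, 28.2 and 43.5 CPM, where Wt1 was at 0 and Upk3b at 0 or 1 count. Knock-in male tumours had 14.2, 18.9 and 12.7 CPM and wild-type female tumours 21, 8.42 and 13.7 CPM. Normal colon was at 6.89, 3.59 and 0.895 CPM in wild-type and at 4.95, 9.68 and 8.98 CPM in knock-in males. In females normal colon had 11.4, 7.10 and 1.39 CPM in wild-type and 2.44, 1.01 and 1.38 CPM in knock-in mice. Upk3b, Lrrn4 and Upk1b thus shared their 4 highest libraries, 3 of which also led for Wt1, while Msln was highest in libraries nearly free of Upk3b, so the 5 genes did not move as 1 set.

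**Figure D1:**
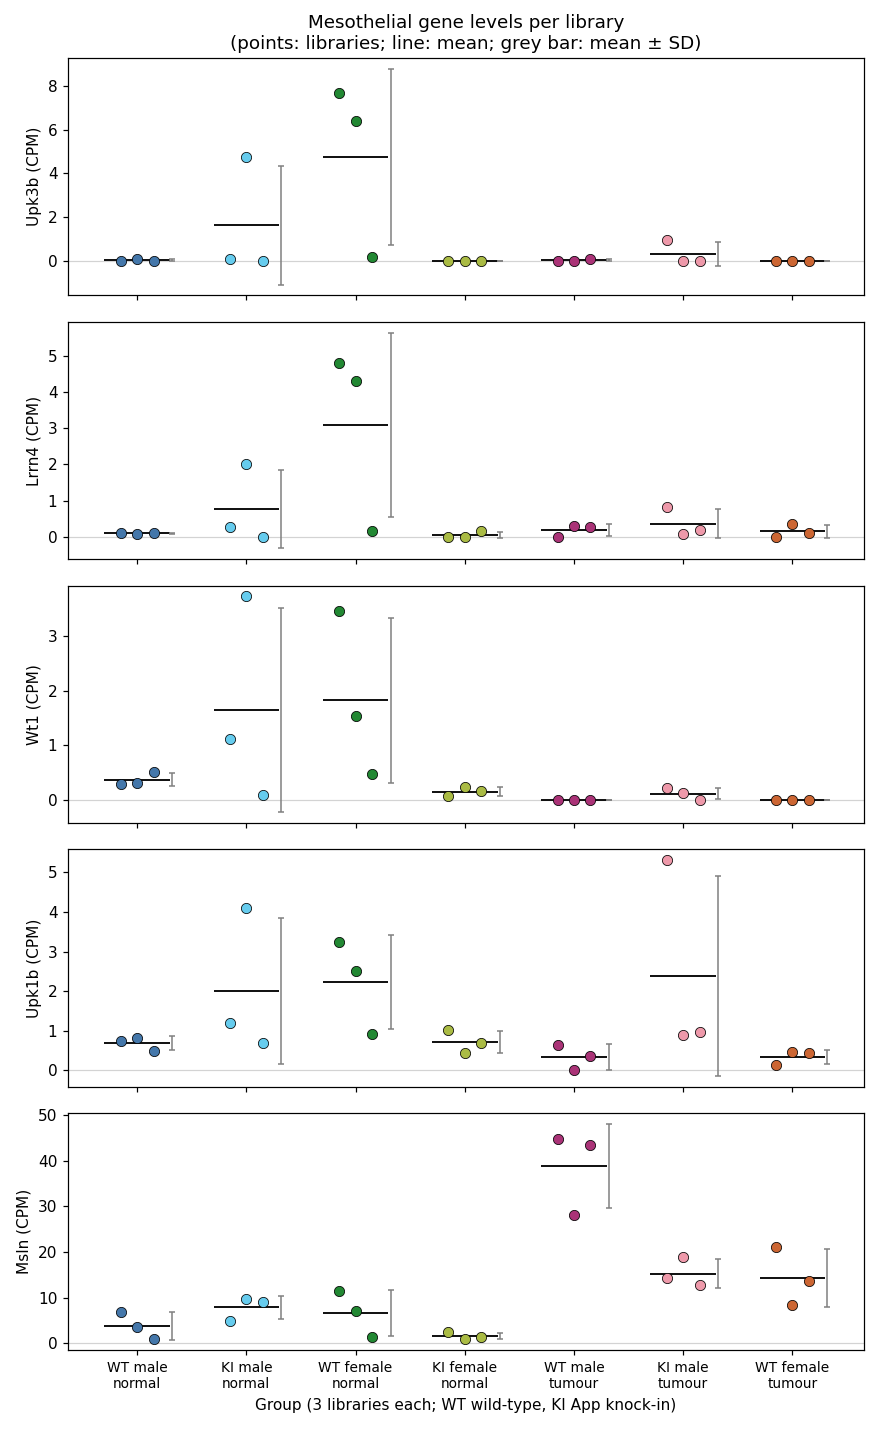
Levels of the 5 members in the 21 libraries, in CPM, by group; points are libraries, black lines group means and grey bars the mean ± SD (n = 3). Upk3b and Lrrn4 are high in 2 wild-type female normal libraries and 1 knock-in male normal library, and Msln is highest in the 3 wild-type male tumours.

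Ranked by group mean, Msln ran from 38.8 ± 9.22 CPM (mean ± SD, n = 3) in male wild-type tumours through 15.3 ± 3.25 in knock-in male tumours and 14.4 ± 6.34 in wild-type female tumours. It went on to 7.87 ± 2.55 CPM in knock-in male, 6.65 ± 5.04 in wild-type female, 3.79 ± 3 in wild-type male and 1.61 ± 0.742 in normal colon of knock-in females. Wild-type male tumours were the only group separated from its neighbour in this order, and each later pair of neighbours overlapped. For Upk1b the order was knock-in male tumours (2.39 ± 2.53 CPM), wild-type female normal (2.23 ± 1.19) and knock-in male normal colon (2.01 ± 1.84). Knock-in female normal (0.716 ± 0.282 CPM), wild-type male normal (0.692 ± 0.172), wild-type female tumour (0.346 ± 0.183) and wild-type male tumour (0.339 ± 0.325) followed, and only wild-type male normal colon and wild-type female tumours, among these Upk1b neighbours, did not overlap. Wt1 was ordered wild-type female normal (1.82 ± 1.52 CPM), knock-in male normal (1.65 ± 1.88), wild-type male normal (0.36 ± 0.119), knock-in female normal (0.146 ± 0.0828) and knock-in male tumour (0.107 ± 0.102). Among these Wt1 groups, wild-type male normal colon lay above knock-in female normal colon without overlap, and the other neighbours overlapped.

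Between genes, levels were compared as CPM per kilobase of exon. Msln led in each group, with 12.7 ± 3.01 (SD, n = 3) in wild-type male tumours and 2.16 ± 1.64 in wild-type female normal colon. In the latter group Upk3b followed at 1.35 ± 1.14, Upk1b at 1.07 ± 0.57 and Lrrn4 at 0.834 ± 0.69. On this scale these differences in wild-type female normal colon were within the spread between its libraries.

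Within a library, members can be compared by the ratio of their counts, which needs no scaling between libraries. Upk3b had 1.60 counts for each Lrrn4 count in wild-type female normal replicate 1 (exact 95% interval 1.26 to 2.04), 1.48 in replicate 2 (0.921 to 2.42), 2.34 in knock-in male normal replicate 2 (1.53 to 3.66) and 1.17 in knock-in male tumour replicate 1 (0.501 to 2.76). Those 4 intervals, which cover counting error only, share a common range, so a single ratio of Upk3b to Lrrn4 cannot be told from different ones at this depth. The ratio of Upk3b to Msln did move. It was 0.672 (exact interval 0.553 to 0.813), 0.902 (0.592 to 1.37) and 0.49 (0.367 to 0.65) in the 3 normal libraries, but 0.067 (0.036 to 0.115) in the tumour library. Against Upk1b the tumour library stood apart too, at 0.179 Upk3b counts for each Upk1b count (exact interval 0.0938 to 0.319), below the 2.36 (1.80 to 3.13), 2.56 (1.45 to 4.68) and 1.15 (0.817 to 1.63) of the normal libraries.

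**Figure D2:**
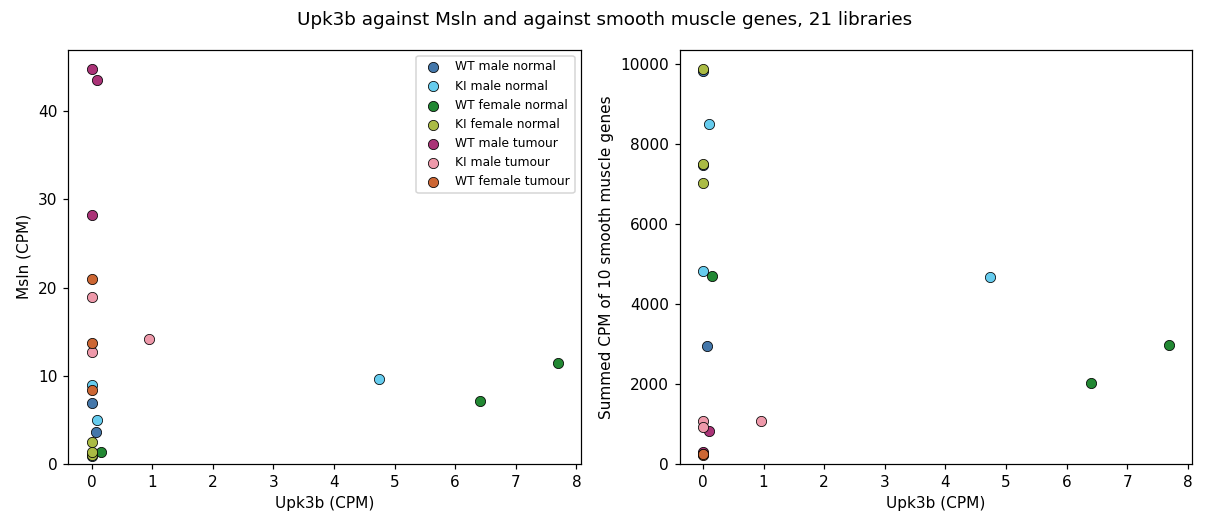
Upk3b (CPM, horizontal axis of both panels) against Msln (CPM, left) and against the summed level of 10 smooth muscle genes (CPM, right) in the 21 libraries, coloured by group. The 3 wild-type male tumours have the highest Msln at next to no Upk3b, and the 2 highest Upk3b libraries have less smooth muscle RNA than most normal libraries.

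After each group's mean was subtracted from log2 CPM, Upk3b correlated with Lrrn4 at a Pearson r of 0.90, with Wt1 at 0.82 and with Upk1b at 0.76 over the 21 libraries. With Msln the value was 0.48. Lrrn4 and Wt1 correlated at 0.79, and Msln with Wt1 at 0.22. These values are descriptions, since all points of a library share its depth and scaling. Wild-type female normal replicate 1 and knock-in male normal replicate 2 were the most deeply sequenced of their groups.

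By the same measure, the genes most like each member among those with a mean of at least 1 CPM were not on the lists of mesothelial markers. For Upk3b they were Frk, a tyrosine kinase gene (r = 0.89), Rnf128 (0.86), Vamp7 (0.85), Mfap1a (0.84) and Zdhhc21 (0.83), with means from 19.4 CPM (Mfap1a) to 158 CPM (Rnf128). Lrrn4 was most like Sel1l (0.86), Snx13 (0.85) and Tmem135 (0.85), and Wt1 most like Tmem128, Gatad1 and Snx3 (0.87 each). Upk1b was most like Etnk1 (0.84), Zfp955a (0.84) and Atad2b (0.83), and Msln most like Trmt13 (0.82), Tdp2 (0.80) and Prss16 (0.76). The r of 0.90 between Upk3b and Lrrn4 was thus close to that between Upk3b and Frk, a gene with a mean of 111 CPM.

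The first comparisons set tumours against normal colon. In wild-type males Msln rose, from 3.79 ± 3 to 38.8 ± 9.22 CPM (means ± SD, 3 libraries each), and the groups did not overlap, as for 26.0% of all tested genes in that direction. The log2 fold change was 3.30 (SE 0.62, adjusted p 0.000714 by edgeR), and the call held when each of the 6 libraries was left out, with log2 fold changes from 2.88 to 4.04. Msln was the only one of the 5 members called, where 16.5% of all tested genes were called higher and 19.3% lower. Wt1 had 15 counts in the normal libraries and none in the tumours, without overlap like 26.4% of tested genes in that direction, and missed the threshold (edgeR adjusted p 0.0838), while DESeq2 called it with an adjusted p of 0.0419. Upk1b (log2 fold change -0.70, SE 0.88) and Lrrn4 (0.68, SE 1.86) overlapped between the groups.

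Knock-in males differed from this in their values. Msln was 7.87 ± 2.55 CPM in normal colon and 15.3 ± 3.25 CPM in tumours (SD, n = 3), without overlap, where 16.0% of all tested genes were higher without overlap, and its log2 fold change of 0.95 (SE 0.57) had an edgeR adjusted p of 0.244. Wt1 fell, a difference of -3.74 on the log2 scale (SE 1.08, adjusted p 0.0265 by edgeR), from 12, 59 and 1 counts to 3, 2 and 0. It was the only member called, against 9.97% of all tested genes called lower, and its groups overlapped. The Wt1 call was lost without knock-in male normal replicate 2, where the log2 fold change was -2.29 and the edgeR adjusted p 0.159. It was also lost without knock-in male tumour replicate 2 (adjusted p 0.0813) or 3 (adjusted p 0.0708), and under limma voom (adjusted p 0.11). For Upk3b (-2.32, SE 1.58) and Lrrn4 (-1.16, SE 1.14) the same normal library set the sign, since without it their log2 fold changes were 2.57 and 1.30. Upk1b was 0.23 (SE 0.68), with 1 high library on each side.

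Whether the Msln difference between tumour and normal colon itself differed between the genotypes was tested as an interaction. The estimate was -2.35 on the log2 scale (SE 0.82), smaller in knock-in males, with an edgeR adjusted p of 0.103, so a difference was not called. At this test edgeR called 1.51% of all tested genes and 0 of the 5 members, 1 of which had an unadjusted p under 0.05. Limma voom also called 0, and DESeq2 called 1 of the 1 member to which it gave an adjusted p. The interaction of sex with tumour in wild-type mice gave 0 members by edgeR, DESeq2 and limma voom, where edgeR called 1.12% of all tested genes. In edgeR 1 member was under an unadjusted p of 0.05, and DESeq2 gave an adjusted p to 3 members.

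In wild-type females Wt1 had 82, 11 and 3 counts in normal colon and none in the 3 tumours. It was at least 5.04-fold lower in tumours, taking 3 counts per tumour library as the bound (edgeR adjusted p 0.00308). Lrrn4 fell, a difference of -4.25 on the log2 scale (SE 1.32, adjusted p 0.0126 by edgeR), although 1 normal library, at 0.155 CPM, lay within the tumour range. Upk1b fell from 2.23 ± 1.19 to 0.346 ± 0.183 CPM (SD, n = 3), without overlap like 28.6% of all tested genes in that direction, a difference of -2.67 on the log2 scale (SE 0.86, adjusted p 0.0155 by edgeR). Upk3b, for which this contrast was known when the genes were picked and no test is given, was at least 13.1-fold lower in tumours by group means. Without wild-type female normal replicate 1 that bound was 9.08-fold. Wt1, Lrrn4 and Upk1b were thus called lower, beside 24.0% of all tested genes, and nothing is read from their number. Most of their normal counts came from wild-type female normal replicates 1 and 2, which held Upk3b. These calls are therefore not independent of the choice of genes. Msln was not called, at 1.03 (SE 0.59, adjusted p 0.156 by edgeR).

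The size of these differences in wild-type females held better than their calls when libraries were left out in turn. Lrrn4 ran from -5.52 to -3.75 on the log2 scale and Upk1b from -3.01 to -2.26, and Wt1 was called each time. Without wild-type female normal replicate 1, which holds the most counts of Wt1, Lrrn4 and Upk1b in its group, the log2 fold change of Lrrn4 was -3.75 (edgeR adjusted p 0.05) and that of Upk1b -2.26 (adjusted p 0.0732), and 1 member was called, namely Wt1. The bound for Wt1 was then 2.76-fold. Without wild-type female tumour replicate 1 the count was likewise 1, with Lrrn4 at -3.76 (edgeR adjusted p 0.0506) and Upk1b at -2.33 (adjusted p 0.0619), and without replicate 3 it was 2, with Lrrn4 at -4.04 (adjusted p 0.0517). Leaving out the libraries numbered 152 to 154 leaves a single wild-type female tumour, assumed to vary like the other groups. No member was called then, with Lrrn4 at -8.33 (edgeR adjusted p 0.1) and Upk1b at -3.98 (adjusted p 0.078).

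All 10 smooth muscle genes examined beside the members fell in each of the 3 tumour comparisons, with medians on the log2 scale of -3.91 (wild-type males), -2.51 (knock-in males) and -4.04 (wild-type females). Their summed level was 2030 to 9870 CPM in normal colon and 214 to 1070 CPM in tumours, so tumour samples held less RNA of these muscle coat genes. Of 9 colon epithelium genes 8 fell in wild-type male, 2 in knock-in male and 9 in wild-type female tumours. Over all tested genes 19.3%, 9.97% and 24.0% were called lower in these 3 comparisons. Fibroblasts of the serosa and adventitia, the outer connective tissue, were read through 6 genes, which did not move one way. In wild-type males 0 rose and 3 fell, beside 16.5% and 19.3% of all tested genes. In knock-in males 1 rose and 2 fell, beside 10.4% and 9.97%. In wild-type females 2 rose and 2 fell, beside 25.0% and 24.0%. The medians of the 6 genes on the log2 scale were -0.96, 0 and -0.01 in this order. Pdgfra, a receptor of fibroblasts in general, rose in wild-type female tumours by 0.74 on the log2 scale (SE 0.21, adjusted p 0.00606 by edgeR), and Col15a1, a basement membrane collagen, by 1.71 (SE 0.32, adjusted p 0.000291). Pi16 and Dpp4, the latter also a gene of the epithelial brush border, were the members of that list that fell in all 3 comparisons. Pi16 had log2 fold changes of -3.55 (SE 0.71), -2.04 (SE 0.62) and -2.66 (SE 0.71), with edgeR adjusted p-values of 0.00118, 0.0297 and 0.00509, and Dpp4 had -1.83 (SE 0.24), -0.89 (SE 0.23) and -1.49 (SE 0.23), with edgeR adjusted p-values of 3.09e-05, 0.0127 and 3.97e-05. The part of sampled muscle and serosa in the differences of the members was not tested.

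**Figure D3:**
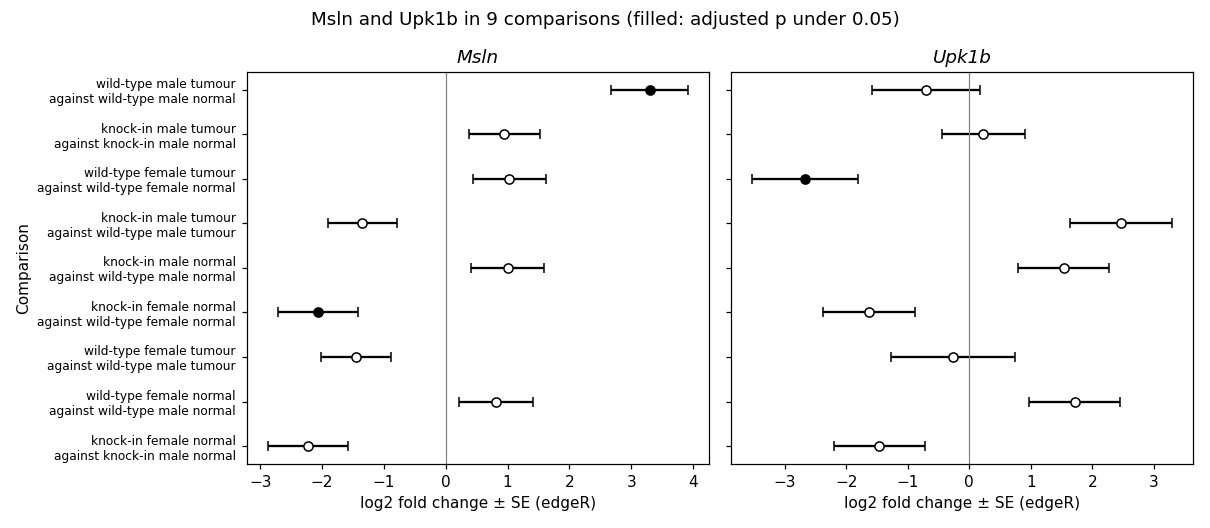
Log2 fold changes of Msln (left) and Upk1b (right) in 9 comparisons between groups, with bars of 1 SE from edgeR's fit; filled points have an adjusted p under 0.05. Msln is filled at 3.30 for wild-type male tumours against normal colon and at -2.06 for knock-in against wild-type female normal colon, and Upk1b at -2.67 for wild-type female tumours against normal colon.

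Genotypes were compared next. Between male tumours edgeR called 0 of the 5 members, where it called 14.5% of all tested genes. An unadjusted p under 0.05 was reached by 2 members. Limma voom called 1, and DESeq2 called 1 of the 3 members to which it gave an adjusted p. Msln was lower in knock-in tumours in every library, at 12.7 to 18.9 CPM against 28.2 to 44.8 CPM, where 16.1% of tested genes were lower without overlap. Its log2 fold change was -1.35 (SE 0.56, adjusted p 0.11 by edgeR), and limma voom called it with an adjusted p of 0.0265. Upk1b was higher in every knock-in tumour than in any wild-type one (0.887 to 5.31 against 0 to 0.648 CPM), like 20.2% of tested genes, a difference of 2.47 on the log2 scale (SE 0.83, adjusted p 0.0526 by edgeR). DESeq2 called Upk1b at an adjusted p of 0.0272, and without knock-in male tumour replicate 3 edgeR did at 0.036. Without knock-in male tumour replicate 1, the highest library, its log2 fold change was 1.06.

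In normal colon of males 0 members were called by edgeR, DESeq2 or limma voom, each with an edgeR adjusted p of 1, where edgeR called 0.0126% of all tested genes. For 3 members the unadjusted p was under 0.05. Unadjusted p-values from edgeR were 0.0267 for Upk3b, 0.03 for Wt1, 0.0402 for Lrrn4 and 0.0525 for Upk1b, all with higher means in the knock-in. Each of these 4 differences leaned on knock-in male normal replicate 2. Without it the log2 fold changes were at their lowest, 0.74 for Upk3b, 0.75 for Wt1, 0.54 for Lrrn4 and 0.42 for Upk1b. Msln had a log2 fold change of 1.00 (SE 0.59) and overlapped between the groups.

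Knock-in females had lower levels than wild-type females in normal colon. Lrrn4 had 0, 0 and 0.153 CPM against 4.82, 4.32 and 0.155 CPM, a difference of -5.69 on the log2 scale (SE 1.44, adjusted p 0.0132 by edgeR). Wt1 fell without overlap, as 18.2% of all tested genes were lower, from 1.82 ± 1.52 to 0.146 ± 0.0828 CPM (SD, n = 3), a difference of -3.78 on the log2 scale (SE 1.09, adjusted p 0.0296 by edgeR). Msln had -2.06 (SE 0.65, adjusted p 0.0419 by edgeR), with wild-type replicate 3 inside the knock-in range. Upk1b, at -1.63 (SE 0.75, adjusted p 0.143 by edgeR), was not called. Upk3b, given as a description because this contrast was known beforehand, was at 0 in all 3 knock-in libraries. With 3 counts per knock-in library as the bound, it was at least 19.1-fold lower by group means. Without wild-type female normal replicate 1 that bound was 13.2-fold. Lrrn4, Wt1 and Msln were thus called lower, beside 7% of all tested genes, and nothing is read from their number. Most of their wild-type counts came from replicates 1 and 2, which held Upk3b, so these calls are not independent of the choice of genes.

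The calls in knock-in females were lost more readily than the differences. Without wild-type female normal replicate 1 no member was called, with edgeR adjusted p-values of 0.0551 for Lrrn4, 0.178 for Wt1 and 0.26 for Msln. The same count of 0 resulted without knock-in female replicate 1 or a, and a count of 1 without wild-type female replicate 2 or knock-in female replicate b. Log2 fold changes kept their sign in all 6 cases, from -8.27 to -5.01 for Lrrn4, from -4.17 to -2.82 for Wt1 and from -2.51 to -1.36 for Msln. Under limma voom Msln had an adjusted p of 0.107, and with library totals in place of TMM scaling, edgeR's trimmed mean correction, 0.0526.

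Other tissue components differed between these groups too. Smooth muscle genes were higher in knock-in females, 5 of 10 called beside 8.97% of all tested genes, with summed levels of 7020, 9870 and 7490 CPM against 2970, 2030 and 4700 CPM in wild-type females. Endothelial genes were too, 3 of 5 called, with sums of 155 to 172 CPM against 66 to 96.3 CPM. The wild-type library lowest in mesothelial RNA, replicate 3, was the one highest in smooth muscle RNA. Of the 6 genes of outer fibroblasts 2 were called higher and 0 lower. Colon epithelium had 0 of 9 genes higher and 2 lower, Cdx2 (-1.25, SE 0.31, edgeR adjusted p 0.0119) and Vil1 (-0.38, SE 0.13, edgeR adjusted p 0.0498). Squamous epithelial genes summed to 4.95 to 9.47 CPM in wild-type females and to 609, 3.82 and 482 CPM in knock-in females, with 0 of 7 called by edgeR and 3 under an unadjusted p of 0.05. The part of these components in the mesothelial difference was not tested.

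Sex was compared last. In wild-type normal colon Lrrn4 was higher in females, a difference of 5.01 on the log2 scale (SE 1.31, adjusted p 0.0159 by edgeR) and without overlap (0.155 to 4.82 against 0.0748 to 0.0994 CPM), like 16.7% of all tested genes in that direction. Upk1b was also without overlap, at 0.928 to 3.25 against 0.497 to 0.823 CPM, a difference of 1.71 on the log2 scale (SE 0.74, adjusted p 0.122 by edgeR). Wt1 had 2.46 (SE 0.94, adjusted p 0.0868 in edgeR) and Msln 0.82 (SE 0.60, adjusted p 0.369). Upk3b, again a description, had 229 counts in the females and 1 in the males. Of the 229 counts, 182 came from wild-type female normal replicate 1, and replicate 3 had 1. Apart from Upk3b, only Lrrn4 was called higher, beside 5.74% of all tested genes, and nothing is read from that. The Lrrn4 call was lost without wild-type female normal replicate 1 (edgeR adjusted p 0.0637) or 2 (0.0529) and without wild-type male normal replicate 1 (0.0787) or 2 (0.0611). Under limma voom it was lost as well (adjusted p 0.0554). Smooth muscle genes were lower in the females in this comparison, 4 of 10 called beside 10.2% of all tested genes, and endothelial genes 4 of 5, and their part was not tested.

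In knock-in normal colon the females had the lower means, and edgeR called 0 of the 5 members. An unadjusted p under 0.05 was reached by 4 members. Limma voom called 0, and DESeq2 called 1 of the 3 members to which it gave an adjusted p. Msln had 2.44, 1.01 and 1.38 CPM in females and 4.95, 9.68 and 8.98 CPM in males, without overlap, where 9.70% of all tested genes were lower without overlap. Its log2 fold change of -2.23 (SE 0.65) had an edgeR adjusted p of 0.114, at a test that called 0.584% of all genes, and DESeq2 gave an adjusted p of 0.00852. Wt1 (-3.57, SE 1.09) and Lrrn4 (-3.73, SE 1.54) had edgeR adjusted p-values of 0.134 and 0.253. Between wild-type tumours of the 2 sexes edgeR, DESeq2 and limma voom called 0 members, where edgeR called 0.860% of all tested genes. In edgeR 1 member had an unadjusted p under 0.05, and DESeq2 gave an adjusted p to 1 member only. Msln was lower in every female tumour (8.42 to 21 against 28.2 to 44.8 CPM), like 15.2% of tested genes, a difference of -1.45 on the log2 scale (SE 0.57, adjusted p 0.166 by edgeR).

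In normal colon the group means of the members were higher with the knock-in in males, where no member was called, and lower in females. The difference of these differences was tested as an interaction. For Lrrn4 this interaction was -8.74 on the log2 scale (SE 2, adjusted p 0.0279 by edgeR) and for Wt1 -6.03 (SE 1.44, adjusted p 0.0408 by edgeR). Msln (-3.06, adjusted p 0.077 in edgeR) and Upk1b (-3.16, adjusted p 0.117) did not pass. Over all tested genes 2.54% were called, and Upk3b is given without a test. With 2 of the contrasts inside the interaction known for Upk3b when the genes were picked, nothing is read from these calls. Lrrn4 was above 3 counts in the same 4 libraries as Upk3b, which also held 80.3% of Wt1 counts. The tests of Lrrn4 and Wt1 are thus not independent of that choice. No member was called when any one of wild-type female normal replicate 1 or 2, wild-type male normal replicate 1 or 3, knock-in male normal replicate 2 or knock-in female normal replicate 1 or a was left out.

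To see whether other mesothelial genes followed the 5 members, a list of 15 further markers was read. Muc16 was not analysed here, Nkain4 and Tbx18 did not pass the filter on low counts, and 12 were tested. Many of these genes are shared with other cells of the colon: Krt19, a keratin of the colon epithelium itself, was at 1040 CPM or more in every library, and Krt7, another simple keratin, at 71.3 CPM or more. Gpm6a, a membrane glycoprotein of mesothelium and neurons, had its 3 highest levels in wild-type female normal replicate 1 (6.84 CPM), knock-in male normal replicate 2 (5.88 CPM) and wild-type female normal replicate 2 (4.74 CPM), the libraries highest in Upk3b. In wild-type female normal replicate 3, where Upk3b had 1 count, Gpm6a did not drop as Upk3b did and stayed close to its level in replicate 2. Pkhd1l1 was highest in knock-in male normal replicate 2 (20.4 CPM) and wild-type female normal replicate 1 (18.7 CPM), and it also reached 12 CPM in wild-type male normal replicate 1, where Upk3b had no count.

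**Figure D4:**
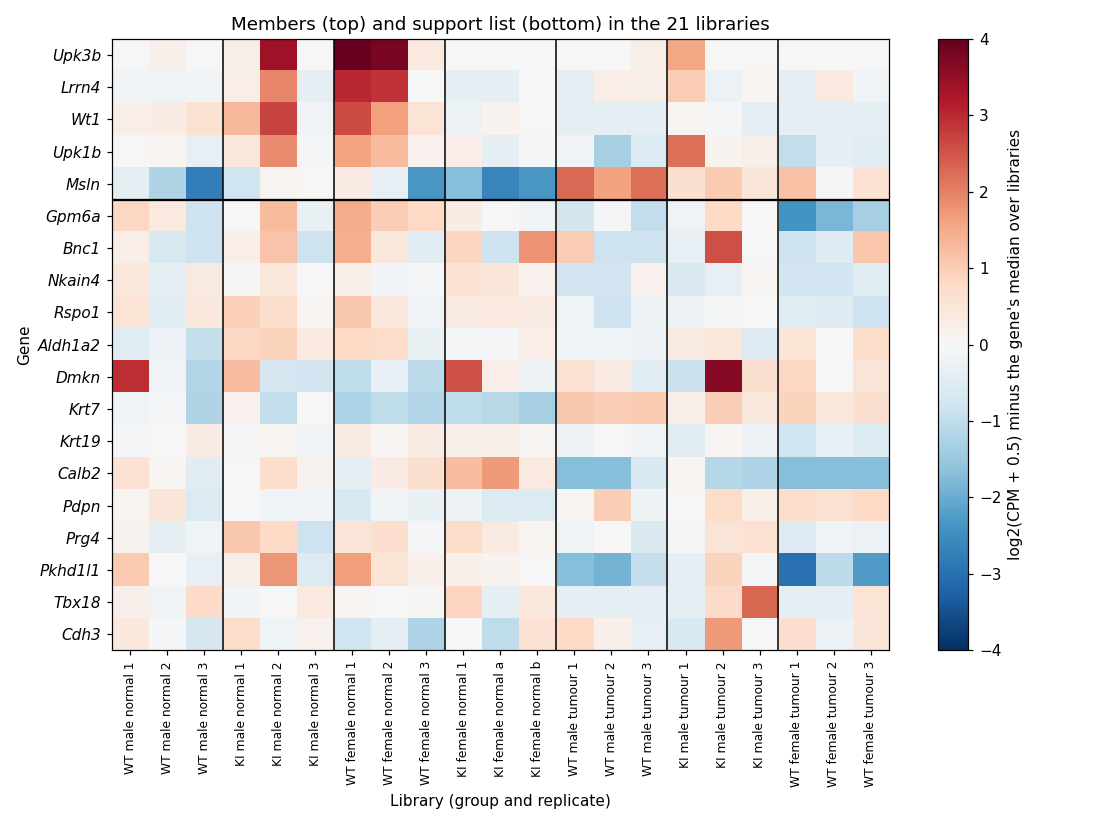
Levels of the 5 members (above the line) and 14 further mesothelial genes (below) in the 21 libraries, as log2(CPM + 0.5) minus the median of each gene; red is above and blue below that median. The columns of wild-type female normal replicates 1 and 2 and knock-in male normal replicate 2 are red for Upk3b, Lrrn4, Wt1 and Upk1b and also for Gpm6a and Pkhd1l1, and the tumour columns are red for Krt7 and, except for wild-type female tumour replicate 2, for Msln.

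In wild-type male tumours 1 of the 12 genes rose and 2 fell, beside 16.5% and 19.3% of all tested genes, with a median log2 fold change of -0.21 against 0.01 over all tested genes. Krt7 rose (log2 fold change 1.43, SE 0.28, edgeR adjusted p 0.00109), from 137 ± 51.7 to 368 ± 12 CPM (SD, n = 3). The calcium-binding protein gene Calb2, also a neuronal gene, fell (-2.56, SE 0.94, edgeR adjusted p 0.0429), and so did Pkhd1l1 (-2.03, SE 0.70, edgeR adjusted p 0.0319). In knock-in male tumours edgeR called 0 of the 12, beside 10.4% of all tested genes called higher and 9.97% lower. Their median was -0.18, and 2 had an unadjusted p under 0.05.

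Wild-type female tumours had 2 of the 12 higher and 5 lower, beside 25.0% and 24.0% of all tested genes, with a median log2 fold change of -0.85. Gpm6a fell most by a fitted value with counts on both sides, from 5.20 ± 1.47 to 0.259 ± 0.273 CPM (SD, n = 3; log2 fold change -4.22, SE 0.72, edgeR adjusted p 0.000107). Rspo1, which encodes a secreted Wnt agonist, fell by 3.31 on the log2 scale (SE 0.87, adjusted p 0.00411 by edgeR). Calb2 had no count in the 3 tumours and 11 to 18 in the normal libraries (edgeR adjusted p 0.00216). Krt19 and Pkhd1l1 also fell, at -0.80 (SE 0.15) and -3.26 (SE 0.74). Krt7 rose again (1.82, SE 0.29, edgeR adjusted p 6.54e-05), as did Pdpn, a surface glycoprotein of mesothelium, lymphatic vessels and fibroblasts (1.09, SE 0.28, edgeR adjusted p 0.00365). Krt7 and Msln therefore both had their highest mean in wild-type male tumours, while Gpm6a and Pkhd1l1 had lower means in tumours than in normal colon in all 3 comparisons.

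Between knock-in and wild-type female normal colon, where 3 of the 4 members open to a test fell, edgeR called 0 of the 12 further genes, 1 of which had an unadjusted p under 0.05, and their median was -0.04 against 0.02 over all tested genes. Aldh1a2, which makes retinoic acid, was the only further gene called between wild-type normal colon of the sexes, higher in females (1.54, SE 0.46, edgeR adjusted p 0.0284). Over all tested genes 5.74% were called higher there and 10.2% lower. Aldh1a2 was also called in the interaction of genotype with sex in normal colon (-2.40, SE 0.63, edgeR adjusted p 0.0472), beside 2.54% of all tested genes. Nothing is read from the number of these calls. By library, Aldh1a2 had 2.20, 2.09 and 0.774 CPM in wild-type females and 0.614, 0.823 and 0.298 CPM in wild-type males. Knock-in males had 2.24, 2.40 and 1.55 CPM and knock-in females 1.01, 1.01 and 1.38 CPM. Every knock-in male library thus lay above every wild-type male one, whereas Upk3b and Lrrn4 passed 3 counts only in knock-in male normal replicate 2. Wild-type female replicate 3 lay below every knock-in female library. Dmkn and Bnc1, also found in stratified epithelium, were highest in knock-in male tumour replicate 2 (24.9 and 4.79 CPM), where squamous genes summed to 3210 CPM.

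Several other tissues express 1 or more of the members, and their defining genes were read in the same libraries. Of the bladder lining, Upk2 had 0 to 6 counts. Upk3a, a uroplakin of the bladder and a relative of Upk3b, rose in wild-type tumours of males (2.86, SE 0.91, edgeR adjusted p 0.0217) and females (5.65, SE 1.30, edgeR adjusted p 0.00159), and Upk1a, a relative of Upk1b, fell in both (-1.71, SE 0.41, and -2.14, SE 0.42, with edgeR adjusted p-values of 0.0036 and 0.000395). Wt1 is also a gene of kidney podocytes and of the gonads: Nphs1 had 0 to 3 counts, Lhx9 0 or 1 and Foxl2 0 to 5. Fat of the mesentery was marked by Adipoq, with 44 counts in wild-type male normal replicate 1, 14 in wild-type female normal replicate 1, 14 in knock-in male normal replicate 1 and 0 in 16 libraries, and the list of 10 adipocyte genes summed to 63.0 to 72.0 CPM in wild-type female normal colon and 73.5 to 107 CPM in the other normal groups. The library with the highest adipocyte sum, knock-in male normal replicate 1, had 1 Upk3b count.

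Other values bear on the same libraries. Squamous genes were low where Upk3b was high, at 7.10 and 9.47 CPM in wild-type female normal replicates 1 and 2 and 11.8 CPM in knock-in male normal replicate 2, but they were as low (3.82 to 4.95 CPM) in 3 libraries with at most 1 Upk3b count. Their part in the levels of the members was not tested.

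The authors' deposited table holds DESeq2 fold changes for 8 pairs of groups, without a wild-type female tumour and normal pair. It lists Msln at 3.33 on the log2 scale (adjusted p 9.63e-08) for wild-type male tumours against normal colon. For knock-in against wild-type female normal colon the authors' deposited table has -2.04 for Msln (adjusted p 0.00648), -3.74 for Wt1 (0.0214), -5.88 for Lrrn4 (0.00519) and -8.33 for Upk3b (0.0816). Upk1b in knock-in against wild-type male tumours stands at 2.55 (adjusted p 0.0284) in the authors' deposited table. Wt1 is given there at -3.96 (adjusted p 0.0471) and -3.89 (adjusted p 0.0148) for male tumours against normal colon, wild-type and knock-in, in the authors' deposited table. At a threshold of 0.05, that table thus calls Upk1b between male tumours and Wt1 in wild-type male tumours, which edgeR placed at 0.0526 and 0.0838. For knock-in male against female normal colon the authors' deposited table also calls Msln, at 2.25 on the log2 scale (adjusted p 0.00955), where edgeR gave 0.114.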

How the data were processed

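The members and the gene lists were chosen with earlier results of these data known. Colon RNA was extracted with Qiazol, freed of rRNA by RNase H and primed with random hexamers, per the labels' protocols. Trimmomatic, HISAT2, featureCounts, DESeq2 and the build mm10 are named in the submitters' processing notes, and versions, annotation and strand use are not given in the sources used here. The deposited raw counts per gene cover 24062 genes. A second deposited table gives the authors' log2 fold changes and their adjusted p-values from DESeq2. In the count table, 2 knock-in female normal columns share a header and are called replicates a and b beside replicate 1.

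Differences were tested with edgeR 4.0.16 (R 4.3.3): TMM scaling, filterByExpr by group, robust quasi-likelihood F test, two-sided, 1 coefficient per group, all 21 libraries, Benjamini-Hochberg adjustment over 15936 genes, threshold 0.05, 9 comparisons and 3 interactions. Standard errors derive from the fold change and the F statistic. CPM uses TMM-scaled totals, the floor is 3 counts, and log2 CPM for correlations has a prior count of 2. Likeness is the Pearson r after subtraction of group means. From other marker lists, called genes with the largest fold changes were named. To look for pairing, deviations of log2 CPM from group means were correlated between libraries of equal replicate number. Between tumour and normal libraries of wild-type males r was 0.18 to 0.25. Between knock-in and wild-type male normal colon, whose libraries come from different genotypes, r ran from -0.23 to 0.5. Libraries of unequal replicate number were not correlated for reference, so these values cannot decide whether libraries were paired. The main tests used no pairing. The statistics were tested on simulated data. DESeq2 1.42.0 and limma 3.58.1 served as alternatives. A gene among the markers of other tissues is not reported here.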

Additional observations from a re-analysis of the deposited data

Results flagged for a closer look

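The interaction of genotype with sex in normal colon passed edgeR's threshold for Lrrn4 and Wt1, and those calls were not stable. Contrasts inside it were known for Upk3b when the genes were picked, and Lrrn4 was above 3 counts in the same libraries as Upk3b. Those libraries also held 80.3% of Wt1 counts. Nothing is therefore read from these calls. On the log2 scale the interaction was -8.74 for Lrrn4 (adjusted p 0.0279) and -6.03 for Wt1 (adjusted p 0.0408). Limma voom and edgeR on the compared groups alone called 0 of the 5 members, as did edgeR without any one of 7 of the 12 libraries. For Upk3b, whose contrasts were known when the genes were picked, the fitted value was -14.57, given as a description with no test, since all knock-in female libraries were at 0 counts and the fitted size is no bound. Wild-type females had 7.69, 6.41 and 0.155 CPM of Upk3b, knock-in females 0, 0 and 0, wild-type males 0, 0.0748 and 0, and knock-in males 0.0934, 4.74 and 0. The libraries above 3 counts of Upk3b in these groups were 2 of wild-type females and 1 of knock-in males.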

How the results depend on the processing

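With DESeq2 size factors all 45 log2 fold changes of members kept their sign and side of the threshold, and with library totals 44 did. The replicate number as a block, fitted on the 18 numbered libraries of 6 groups, changed no call. It turned 1 sign, for Lrrn4 between wild-type tumours of the sexes (-0.31 on the log2 scale), where the value without the libraries numbered 152 to 154, an alternative chosen after seeing the data, was -4.01.

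Counts of called members, here and wherever libraries were left out, are over all 5 members. Upk3b is among them also in the contrasts known beforehand, and nothing is read from the counts there. They moved as follows, and the cause was not tested except where fewer genes or libraries were used by construction. For wild-type male tumours against normal colon DESeq2 called 2. In knock-in males the count was 0 with a mean of at least 50 counts, which left 2 members, with limma voom, with a fit of the compared groups alone, and without the libraries numbered 152 to 154. In wild-type females it was 1 with a mean of at least 50 counts, 0 with only the compared groups and 0 without the libraries numbered 152 to 154. Between male tumours DESeq2, limma voom and the fit of the compared groups called 1. Between knock-in and wild-type female normal colon the count was 2 without a filter, 2 with a mean of at least 50 counts, 1 with DESeq2 and 1 with only the compared groups. Between wild-type normal colon of the sexes it was 1 without a filter, with a mean of at least 50 counts and with limma voom, and 0 with DESeq2 or the compared groups. Between wild-type tumours of the sexes the compared groups gave 1, and between knock-in normal colon of the sexes DESeq2 and the compared groups gave 1. For the interaction of genotype with tumour DESeq2 gave 1. For that of genotype with sex the count was 2 without a filter, 1 with a mean of at least 50 counts, 1 with DESeq2, 0 with limma voom and 0 with only the compared groups. DESeq2 gave an adjusted p to 3 members between male tumours and between knock-in and wild-type female normal colon. The number was also 3 between normal colon of the sexes in either genotype. Only 1 member had an adjusted p from DESeq2 between wild-type tumours of the sexes and in these 2 interactions.

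Leaving out each library in turn, the count ran from 0 to 1 in knock-in male tumours against normal colon and between male tumours, from 1 to 4 in wild-type female tumours against normal colon, from 0 to 4 between knock-in and wild-type female normal colon, from 0 to 2 between wild-type normal colon of the sexes and from 0 to 4 in the interaction of genotype with sex. Signs turned for members without a call. In wild-type male tumours against normal colon Upk3b ran from -1.69 to 2.15 and Lrrn4 from -0.42 to 1.53. In knock-in males Upk1b ran from -1.18 to 1.29, Upk3b from -7.35 to 2.57 and Lrrn4 from -2.78 to 1.30. Between male tumours Upk3b ran from -2.14 to 5.05 and Lrrn4 from -0.40 to 2.31, and between wild-type tumours of the sexes Upk1b ran from -0.53 to 0.42 and Lrrn4 from -1.20 to 1.17. DESeq2 gave no adjusted p to some members with low counts. Depth limits Upk3b, Lrrn4 and Wt1 most, since they stood above 3 counts in 4, 4 and 7 of 21 libraries.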
